A study of Homo sapiens with 72 samples.

Results

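Wild-type G3BP1 was compared here with G3BP1 lacking its NTF2 domain, in cells that were not stressed. The comparison takes 4 of the 72 libraries of the series, 2 of each rescue, and the 16210 genes, of 61541 listed, whose base mean was at least 10 in both deposited comparisons with knockout. All cells were U2OS, a human osteosarcoma line, with both G3BP1 and G3BP2 knocked out. For 24 h before collection the knockout cells had been transiently transfected by Lipofectamine with a transgene of wild-type G3BP1 or of the NTF2-deletion mutant. Another 2 libraries came from the same knockout cells without a transgene, and arsenite-treated counterparts of all 3 groups (200 uM sodium arsenite for 2 h) were used as a second pair. No group transfected with an empty vector was used here, and whether the knockout is 1 clone is not given in the sources used here. Transient transfection leaves a mixture of cells with and without the transgene, so a level in bulk RNA averages over both, and fewer responding cells cannot be told apart from less RNA per cell.

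G3BP1 binds RNA and is the core protein of stress granules, the bodies of messenger RNA and protein that gather when translation stops. Its N-terminal NTF2-like domain lets the protein pair with itself and holds the binding surface shared by CAPRIN1 and USP10. CAPRIN1 favours granule formation, and the deubiquitinase USP10 opposes it. UBAP2L also binds this domain. Without it, G3BP1 keeps its RNA-binding parts but is known not to nucleate granules. The comparison therefore asks which transcripts differ when the added G3BP1 has or lacks the part that makes contact with its partners.

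Both transgenes were strongly expressed, and the NTF2-deletion form gave more RNA. G3BP1 (ENSG00000145907) had 630613 and 599602 normalised reads in the wild-type rescue libraries and 851218 and 816242 in the NTF2-deletion libraries, against 3870 and 3940 in knockout. Normalised reads are whole reads per library, worked out from the deposited base means and scaled over the 12 libraries of the experiment. The rescue groups did not overlap: G3BP1 was 1.35-fold lower with the wild-type form (log2 difference -0.44, SE 0.03, limma adjusted p = 4.15e-19). It took 4.02% and 3.83% of gene reads with the wild-type form and 5.32% and 5.16% with the deletion form. This gap in transgene level runs along with every difference reported below, and its part in them was not tested. Counts per gene do not show which part of G3BP1 the reads cover, so they do not check the deletion itself.

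The processed pseudogene G3BP1P1 (ENSG00000235651) carries sequence closely similar to G3BP1 and can take its reads, so its value is uncertain. It had 200.6 and 179.4 normalised reads with the wild-type form and 1260 and 1297 with the deletion form, against 19.9 and 16.3 in knockout. The difference of 6.71-fold (log2 -2.75, SE 0.11, limma adjusted p = 2.29e-29) was larger than that of G3BP1 itself. With arsenite it was -2.92 (SE 0.09, limma adjusted p = 3.76e-26).

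The paralog G3BP2 and the partners of the NTF2 domain had like levels in both rescues. G3BP2 had 2436 and 2467 normalised reads with the wild-type form and 2431 and 2531 with the deletion form, so these libraries overlap. Its log2 difference was -0.02, with a 95% interval from -0.13 to 0.09. Its transcript was still counted in the knockout libraries, at 1701 and 1684. CAPRIN1 had 5986 and 5985 normalised reads against 6151 and 6180 (log2 difference -0.04, SE 0.04). USP10 had 2765 and 2587 against 2585 and 2566 (0.06, SE 0.06), and UBAP2L had 4419 and 4341 against 4627 and 4429 (-0.05, SE 0.05). None of these 4 genes passed the test (limma adjusted p from 0.731 to 0.943). Each stood lower in the knockout libraries, for example CAPRIN1 at 4368 and 4525.

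**Figure D1:**
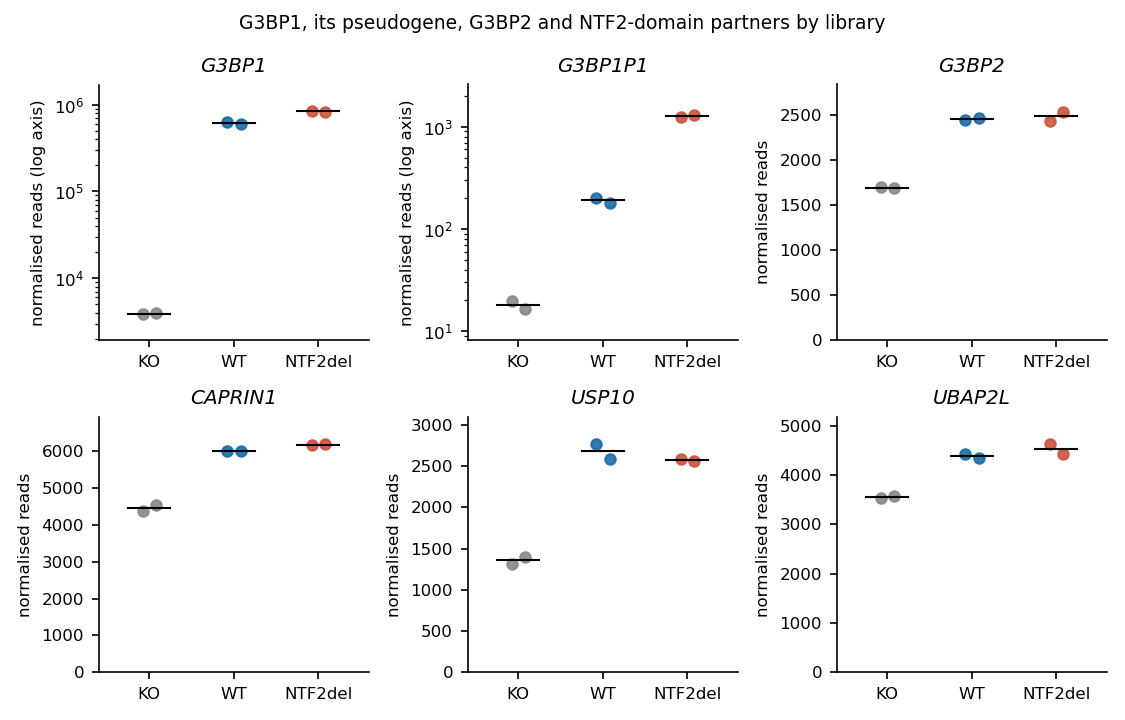
Normalised reads per library (vertical axis, logarithmic for G3BP1 and G3BP1P1) in knockout (KO), wild-type rescue (WT) and NTF2-deletion rescue (NTF2del), with each point a library and each bar the mean of 2. G3BP1 and G3BP1P1 lie lower with the wild-type form, while CAPRIN1 differs by a log2 value of -0.04.

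The difference between the deposited fold changes of both rescues over knockout called 3 of 16210 genes (0.0185%) at a Benjamini-Hochberg adjusted p under 0.05, and 116 genes (0.716%) had an unadjusted p under 0.05. All 3 were lower with the wild-type form: G3BP1, G3BP1P1 and the pseudogene RHPN2P1 (ENSG00000258628). RHPN2P1 differed by -3.55 (SE 0.77, Benjamini-Hochberg adjusted p = 0.0214) on the deposited scale. Its recovered reads were 108 and 110 in knockout, 0 and 1 with the wild-type form and 7 and 0 with the deletion form. The reads of RHPN2P1 in the rescues thus overlap at 0, a single library holds the 7 reads, and its mean is under the minimum of 10 for the direct test. The knockout libraries enter both deposited tables, so their error is counted in both standard errors of this test.

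Compared directly on the recovered reads, 171 of 15795 genes (1.08%) differed between the rescues at a limma adjusted p under 0.05. With the wild-type form 124 genes were higher (0.785%) and 47 lower (0.298%), and 1968 genes (12.5%) had an unadjusted p under 0.05. Most differences were small. Of the 171 genes, 26 reached a log2 difference of 0.5 in size and 6 reached 1, and 165 had a mean of at least 100 normalised reads. The libraries of both rescues did not overlap in any of the 171, where 44% of all genes tested also show no overlap. Scaling to total reads in place of median-of-ratios size factors called 240 genes, 201 higher and 39 lower. Leaving out a wild-type library gave 24 or 25 called genes, and leaving out an NTF2-deletion library gave 109 or 135. Called with all libraries and in each of these 4 fits were 17 genes, 15 of them higher and 2 lower with the wild-type form. Of 46 called genes chosen by the naming rule, 35 lost the call in at least 1 of the 4 fits, each of them without a wild-type library and 28 also without an NTF2-deletion library. The limma adjusted p given below for 1 library left out is the highest of the 4 fits, reached without a wild-type library in every gene but ZNF550. The 17 genes were BIRC3, KLF6, HMOX1, RND3, SESN2, ZNF473, G3BP1, ANKRD1, MMP3, ZFP36L2, ESM1, TM4SF1, MMP1, SLC9A3-AS1, G3BP1P1, NEAT1 and SNORD3A.

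**Figure D2:**
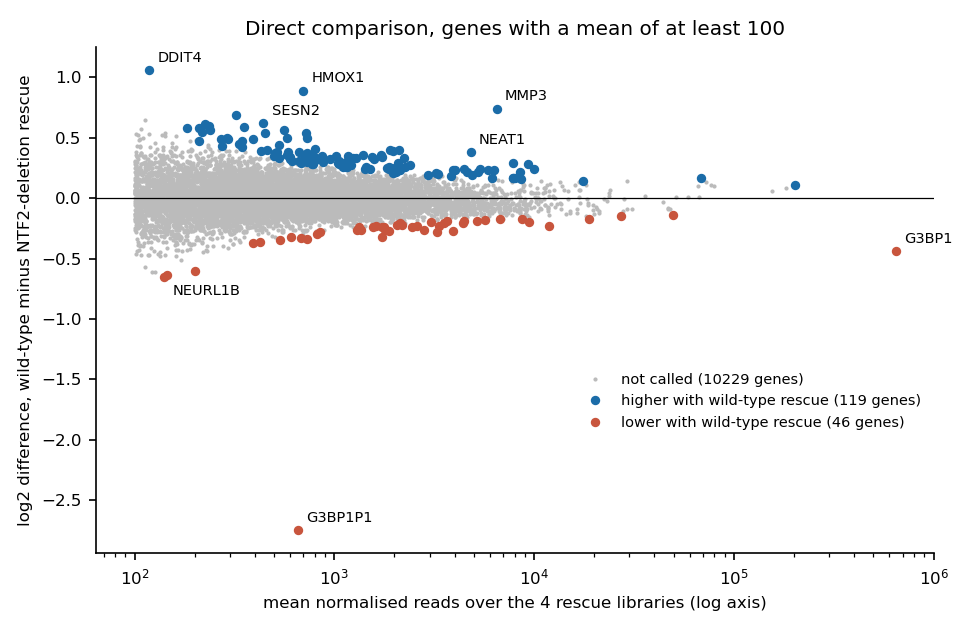
Log2 difference of wild-type minus NTF2-deletion rescue (vertical axis) against the mean of normalised reads over the 4 rescue libraries (horizontal axis, logarithmic) for genes with a mean of at least 100, each point a gene. The 119 genes called higher and the 46 called lower lie mostly close to 0, with DDIT4 at 1.06 and G3BP1P1 at -2.75 as the ends.

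A pair of proteases that cut the extracellular matrix rose with the wild-type form. MMP3 (ENSG00000149968), stromelysin-1, had 9267 and 8884 normalised reads with the wild-type form and 5325 and 5531 with the deletion form, against 4.42 and 1.25 in knockout. It was 1.67-fold higher with the wild-type form (log2 0.74, SE 0.04, limma adjusted p = 2.42e-20). MMP1 (ENSG00000196611), interstitial collagenase, had 160.9 and 129.4 normalised reads with the wild-type form, 48.3 and 59.7 with the deletion form and no read in knockout. Its log2 difference was 1.43 (SE 0.22, limma adjusted p = 1.81e-05). Both genes are thus above knockout in both rescues and highest in the wild-type libraries, MMP1 at far fewer reads than MMP3.

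Of 19 matrix and protease genes tested, 5 rose and 1 fell, where 0.785% of all genes rose and 0.298% fell. The median log2 difference was 0.15, and that of all genes -0.00. SPP1, the bone matrix protein osteopontin, had 558.8 and 625.5 normalised reads against 431.4 and 380.8 (log2 0.54, SE 0.10, limma adjusted p = 3.58e-04). TIMP1, an inhibitor of metalloproteinases, had 4829 and 4781 against 4377 and 3857 (0.23, SE 0.05). COL5A1, a fibrillar collagen chain, fell: 1361 and 1413 against 1679 and 1640 (-0.26, SE 0.06, limma adjusted p = 0.0185). The list is therefore not of one direction. With 1 library left out, the limma adjusted p of SPP1 reached 0.108, that of TIMP1 0.322 and that of COL5A1 0.485.

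HMOX1 (ENSG00000100292), heme oxygenase 1 and a target of the oxidant-sensing factor NRF2, was higher with the wild-type form. It had 1034 and 989.9 normalised reads against 564.9 and 529.5 with the deletion form and 201 and 177.7 in knockout. The rise was 1.85-fold (log2 0.89, SE 0.08, limma adjusted p = 2.07e-12). Of 23 heat shock, metallothionein and oxidative stress genes, only HMOX1 and SQSTM1 passed the test in the unstressed libraries, both higher, against 0.785% of all genes. SQSTM1, the autophagy receptor p62, had 9310 and 9106 normalised reads against 8256 and 8117 (log2 0.17, SE 0.04, limma adjusted p = 0.0251), at most 0.541 with 1 library left out. HSPE1, a mitochondrial co-chaperone, had the lowest difference of the list at -0.26 (SE 0.07, limma adjusted p = 0.0717). The list's median was 0.02, with 15 of 23 members positive.

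Among the targets of ATF4, the transcription factor of the integrated stress response, 4 of 17 genes rose and none fell, where 0.785% of all genes rose and 0.298% fell. The median of the list was 0.10. DDIT4, an inhibitor of mTORC1 signalling, had 162 and 194.1 normalised reads with the wild-type form and 93.5 and 77 with the deletion form. Knockout had 191 and 262.7, above the deletion form and overlapping the wild-type form. Its log2 difference was 1.06 (SE 0.19, limma adjusted p = 3.58e-04), which reached 0.0505 with 1 library left out. SESN2, a stress-induced inhibitor of the same pathway, had 599.6 and 591.4 normalised reads against 437.6 and 340.7 (log2 0.62, SE 0.10, limma adjusted p = 4.18e-05). PPP1R15A, a phosphatase subunit that reverses the translation block of the integrated stress response, had 2564 and 2502 against 2151 and 2166 (0.23, SE 0.06). SLC7A5, an amino acid transporter, had 20680 and 20581 against 19133 and 18367 (0.14, SE 0.04). The amino acid synthesis enzyme PHGDH differed by -0.09 (SE 0.06) and did not pass the test. With 1 library left out, the limma adjusted p of PPP1R15A reached 0.436 and that of SLC7A5 0.559.

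Immediate-early genes, which growth factors and stress switch on within minutes, mostly had positive differences. Of 24 genes tested, 21 had a positive difference, against 7727 of 15795 over all genes, and the median was 0.15. The test called 3 of them, all higher, where 0.785% of all genes were called higher. ATF3, a stress-induced transcription factor, had 788.1 and 722 normalised reads against 550.6 and 519.7 (log2 0.50, SE 0.09, limma adjusted p = 2.26e-04). KLF6, a zinc finger factor, had 2372 and 2454 against 1870 and 1777 (0.40, SE 0.06, limma adjusted p = 4.96e-06). KLF10, a TGF-beta-induced factor of the same family, had 2726 and 2860 against 2257 and 2175 (0.33, SE 0.06). FOSB did not pass the test at a difference of 0.52 (SE 0.16, limma adjusted p = 0.11), and JUND was lowest at -0.15. With 1 library left out, the limma adjusted p of ATF3 reached 0.103 and that of KLF10 0.0876.

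NF-kappaB targets, cytokines and chemokines had 3 of 13 genes higher and none lower, against 0.785% and 0.298% of all genes, and a median of 0.10. BIRC3, an inhibitor of apoptosis, had 2452 and 2534 normalised reads against 1817 and 2007 (log2 0.39, SE 0.06, limma adjusted p = 1.67e-05). In knockout BIRC3 stood at 1832 and 1725, near the deletion form. TNFAIP3, a feedback inhibitor of NF-kappaB, had 734.1 and 720.8 against 607.1 and 525.1 (0.36, SE 0.09). LIF, a cytokine, had 2331 and 2197 against 2014 and 1826 (0.24, SE 0.06). With 1 library left out, the limma adjusted p of TNFAIP3 reached 0.309 and that of LIF 0.559.

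Among 30 factors of messenger RNA decay 2 rose, against 0.785% of all genes, and both bind AU-rich elements and recruit deadenylases. ZFP36L2 had 944.6 and 958.1 normalised reads with the wild-type form and 672.8 and 677 with the deletion form (log2 0.50, SE 0.08, limma adjusted p = 2.65e-05). ZFP36L1 had 11303 and 11570 against 9410 and 9487 (0.28, SE 0.04, limma adjusted p = 3.08e-05, at most 0.0539 with 1 library left out). Further AU-rich element binders of the list, named after their values were seen, did not pass: ZFP36 (-0.07), KHSRP (-0.07), HNRNPD (-0.11) and ELAVL1 (-0.04). The median of the list was -0.00, and the deadenylase PAN2 was lowest at -0.14, which did not pass the test. Total-read scaling turned that median to 0.02, together with the median of all genes, and changed the sign of no other list's median.

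Several of the 17 genes called under every omission belong to no list and are named here after their values were seen. NEAT1, the RNA scaffold of nuclear paraspeckles, had 6025 and 6099 normalised reads against 4475 and 4842 (log2 0.38, SE 0.05, limma adjusted p = 9.3e-07). Knockout had more of NEAT1 than either rescue, 8774 and 7618. ANKRD1, a muscle and YAP-responsive ankyrin repeat protein, had 9611 and 9725 against 7817 and 8010 (0.29, SE 0.04). RND3 had 2158 and 2144 against 1604 and 1752 (0.36, SE 0.06). ESM1, a secreted proteoglycan, had 2688 and 2659 against 2038 and 2027 (0.40, SE 0.06), and TM4SF1, a membrane protein, had 942.4 and 970.6 against 635.8 and 683.5 (0.54, SE 0.08).

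Other genes among the 10 highest with a mean of at least 100 had fewer reads. ZNF473, a zinc finger protein of histone messenger RNA processing, had 460.7 and 482.5 normalised reads against 334.9 and 290.8 (log2 0.59, SE 0.10). SNORD3A, a U3 small nucleolar RNA without a poly-A tail of its own, had 448.6 and 432.5 against 241.4 and 310.3 (0.69, SE 0.12), in libraries selected for poly-A RNA. The histone demethylase KDM7A (0.61), the zinc finger gene ZNF550 (0.58) and the zinc transporter SLC30A3 (0.58) were also higher. PMS2CL (0.60) is a pseudogene whose reads can be split with PMS2 and is uncertain. In these 4 genes the limma adjusted p reached from 0.106 to 0.558 with 1 library left out.

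**Figure D3:**
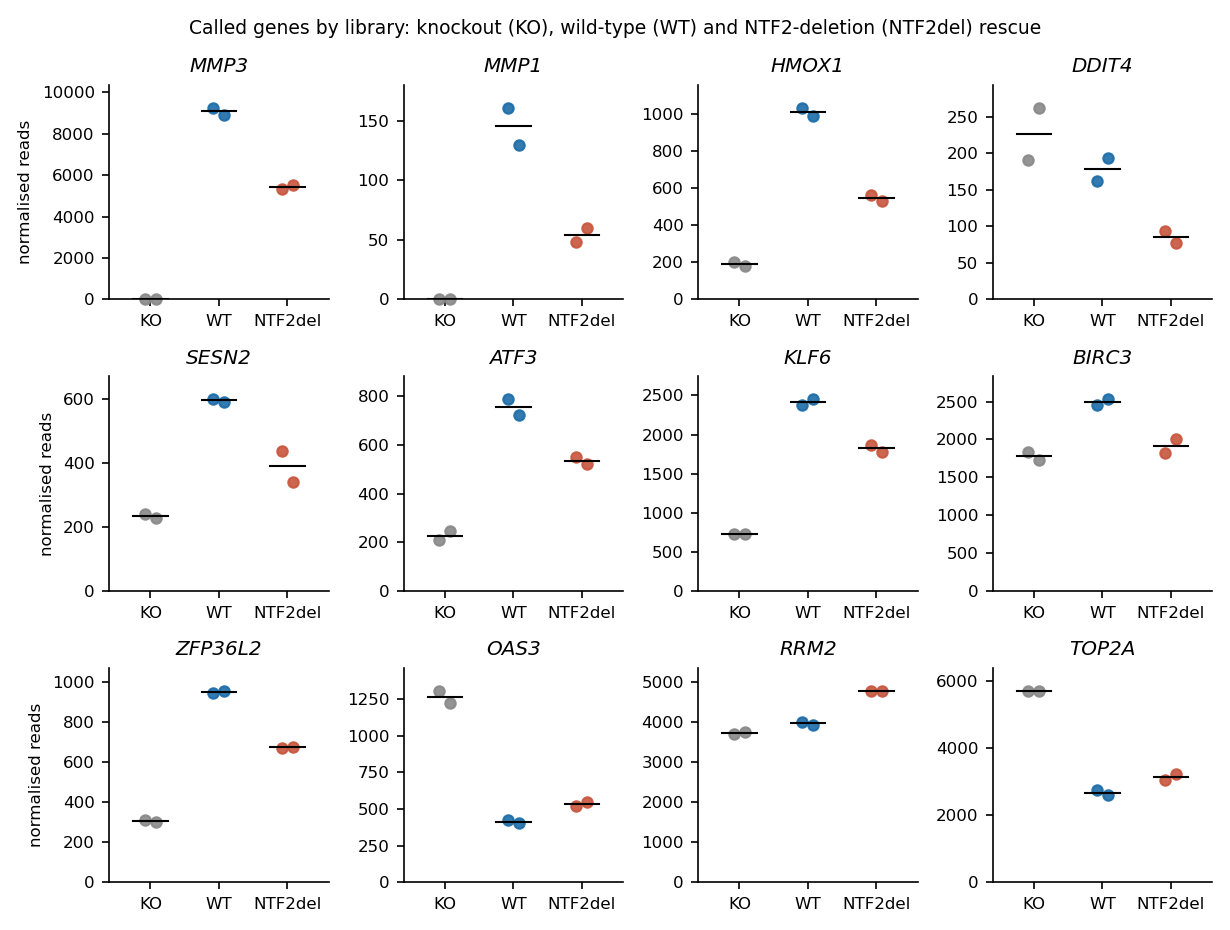
Normalised reads per library (vertical axes, each from 0) of 12 called genes in knockout (KO), wild-type rescue (WT) and NTF2-deletion rescue (NTF2del), with each point a library and each bar the mean of 2. MMP3, MMP1 and HMOX1 are lowest in knockout and highest in WT, DDIT4 is lowest in NTF2del, and OAS3, RRM2 and TOP2A are lower in WT than in NTF2del.

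Promoters of the genes that rose were read for motifs of factors named above. The 250 bases before the start were taken from RefSeq (GRCh38.p14) for 91 of the 124 higher genes, 35 of the 47 lower genes and 10975 of the 15795 genes tested. TGANTCA is a broad pattern for the AP-1 element that allows any base at its centre. It was in 8 of 91 higher promoters (8.79%), 0 of 35 lower and 443 of 10975 in all (4.04%). TGACGTCA, the cyclic AMP response element bound by ATF and CREB factors, was in 5 of 91 (5.49%), 1 of 35 (2.86%) and 319 of 10975 (2.91%). The antioxidant response element bound by NRF2, searched by its core on both strands, was in 6 of 91 (6.59%), 0 of 35 and 254 of 10975 (2.31%). It can overlap TGANTCA in part. These shares were not tested, the motifs were chosen after the called genes were seen, and a match is not a site of binding. The promoters below, with the matches in capitals, belong to ANKRD1 (chr10:90921088-90921337, minus strand), PLAUR (chr19:43670170-43670419, minus strand) and PPP1R15A (chr19:48872171-48872420, plus strand). They are shown because each carries a match and its gene rose, ANKRD1 also under every omission. PLAUR, the urokinase receptor, had 2563 and 2553 normalised reads against 2226 and 2154 (log2 0.23, SE 0.06, limma adjusted p = 0.0219). With arsenite PLAUR differed by -0.00 (SE 0.05). Neither PLAUR nor PPP1R15A was called under every omission.
ANKRD1: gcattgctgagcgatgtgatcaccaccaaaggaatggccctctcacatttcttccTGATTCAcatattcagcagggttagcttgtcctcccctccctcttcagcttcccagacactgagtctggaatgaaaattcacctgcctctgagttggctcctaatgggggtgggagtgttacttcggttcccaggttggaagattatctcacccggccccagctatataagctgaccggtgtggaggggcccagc
PLAUR: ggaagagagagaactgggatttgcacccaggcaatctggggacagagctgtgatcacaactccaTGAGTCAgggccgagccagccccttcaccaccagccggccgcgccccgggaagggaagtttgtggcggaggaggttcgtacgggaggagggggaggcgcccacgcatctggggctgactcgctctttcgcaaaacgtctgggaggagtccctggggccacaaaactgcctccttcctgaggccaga
PPP1R15A: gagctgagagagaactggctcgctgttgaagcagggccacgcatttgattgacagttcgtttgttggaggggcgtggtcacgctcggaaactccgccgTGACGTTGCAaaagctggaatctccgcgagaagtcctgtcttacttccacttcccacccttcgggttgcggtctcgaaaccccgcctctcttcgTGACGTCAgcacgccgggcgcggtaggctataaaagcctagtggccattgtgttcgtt
The match of ANKRD1 starts 195 bases before the gene's start and that of PLAUR 186 bases before it, both TGANTCA. PPP1R15A holds the antioxidant response element from 152 and TGACGTCA from 58 bases before its start.

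Genes of cell proliferation mostly had negative differences. All 18 mitotic genes had a negative difference, with a median of -0.14, and 2 passed the test, where 0.298% of all genes were called lower. By total reads 17 of these 18 were negative, with a median of -0.12. TOP2A, the topoisomerase that separates chromosomes, had 2743 and 2609 normalised reads against 3053 and 3218 (log2 -0.23, SE 0.05, limma adjusted p = 0.0144). BIRC5, the survivin of the chromosome passenger complex, had 1700 and 1612 against 1924 and 1974 (-0.23, SE 0.06, limma adjusted p = 0.0312). Of 17 DNA replication genes 3 fell and none rose, against 0.298% and 0.785% of all genes, with a median of -0.12. RRM2, a subunit of ribonucleotide reductase, had 4011 and 3928 against 4787 and 4767 (-0.27, SE 0.05, limma adjusted p = 4.00e-04). RRM1, its partner subunit, had 2192 and 2212 against 2646 and 2470 (-0.21, SE 0.06). TYMS, which makes thymidylate, had 6977 and 7231 against 8177 and 7856 (-0.17, SE 0.04). None of these 5 calls held in every fit with 1 library left out, where the limma adjusted p reached 0.16 for RRM2 and from 0.482 to 0.581 for the others.

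Cytosolic ribosomal protein genes had small differences, nearly all negative. Of 79 genes, 76 had a negative difference, with a median of -0.09. Over all 15795 genes 7727 had a positive difference. Of the 79, 2 passed the test, both lower, where 0.298% of all genes were called lower. An unadjusted limma p under 0.05 was found for 34 of the 79, against 12.5% of all genes. FAU, a ubiquitin-like fusion with RPS30, had 1952 and 1839 normalised reads against 2225 and 2354 (log2 -0.27, SE 0.06, limma adjusted p = 0.00704). RPS20 had 9225 and 8982 against 10532 and 10030 (-0.17, SE 0.04, limma adjusted p = 0.0185). With 1 library left out these reached 0.398 and 0.512. Ribosomal protein genes have many processed pseudogenes, which can take part of their reads.

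The interferon-stimulated genes tested, 23 of 35 on the list, had a median of -0.19, with 6 positive and 1 call, OAS3, against 0.298% of all genes called lower. OAS3, an antiviral sensor of double-stranded RNA, had 423.2 and 406.4 normalised reads with the wild-type form, 522.8 and 547.9 with the deletion form and 1308 and 1224 in knockout. Its log2 difference was -0.36 (SE 0.10, limma adjusted p = 0.0348, up to 0.432 with 1 library left out). PSMB8, a subunit of the immunoproteasome, had 388 and 375.7 against 494.1 and 492.6 (-0.37, SE 0.10, limma adjusted p = 0.042). Of 22 genes of stress granule proteins and NTF2-domain partners only YBX1, a messenger RNA-binding protein, passed the test: 19580 and 20098 against 21855 and 22908 (-0.17, SE 0.04, limma adjusted p = 0.0175, up to 0.559 with 1 library left out). The median of that list was -0.03.

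Other genes among the 10 lowest were NEURL1B, a ubiquitin ligase, with 134.5 and 110.1 normalised reads against 179.8 and 204 (log2 -0.65, SE 0.16, limma adjusted p = 0.0205). NUDT2, which cleaves diadenosine tetraphosphate, had 127.9 and 124.9 against 209.5 and 186.6 (-0.64, SE 0.16). BAD, a pro-apoptotic BCL2 relative, had 166.4 and 190.7 against 277.3 and 261.5 (-0.60, SE 0.14). PFDN1 (-0.34), a prefoldin subunit, and PCBP1-AS1 (-0.33), an antisense RNA whose reads may not be separable from its partner, were also lower. In these 5 genes and PSMB8 the limma adjusted p reached from 0.292 to 0.577 with 1 library left out.

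Mitochondrially encoded transcripts had 2 of 13 higher, MT-ND1 (80847 and 79616 normalised reads against 76204 and 67201, log2 0.17, SE 0.04) and MT-CO1 (0.11, SE 0.03), against 0.785% of all genes, with a median of 0.10. The share of gene reads from mitochondrial genes was 6.61% and 6.47% in the wild-type libraries and 6.32% and 5.83% in the deletion libraries. No call was made by limma among 16 p53 pathway genes, 19 cholesterol synthesis genes or 17 small nucleolar RNA host genes, with medians of -0.03, 0.07 and -0.03. An unadjusted limma p under 0.05 was found for 2, 8 and 3 of them, against 12.5% of all genes. The cholesterol list is above that share. The test of the deposited fold changes called no member of any of the 15 lists. Leaving out 1 library took the limma adjusted p of MT-ND1 to 0.457 and that of MT-CO1 to 0.645.

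**Figure D4:**
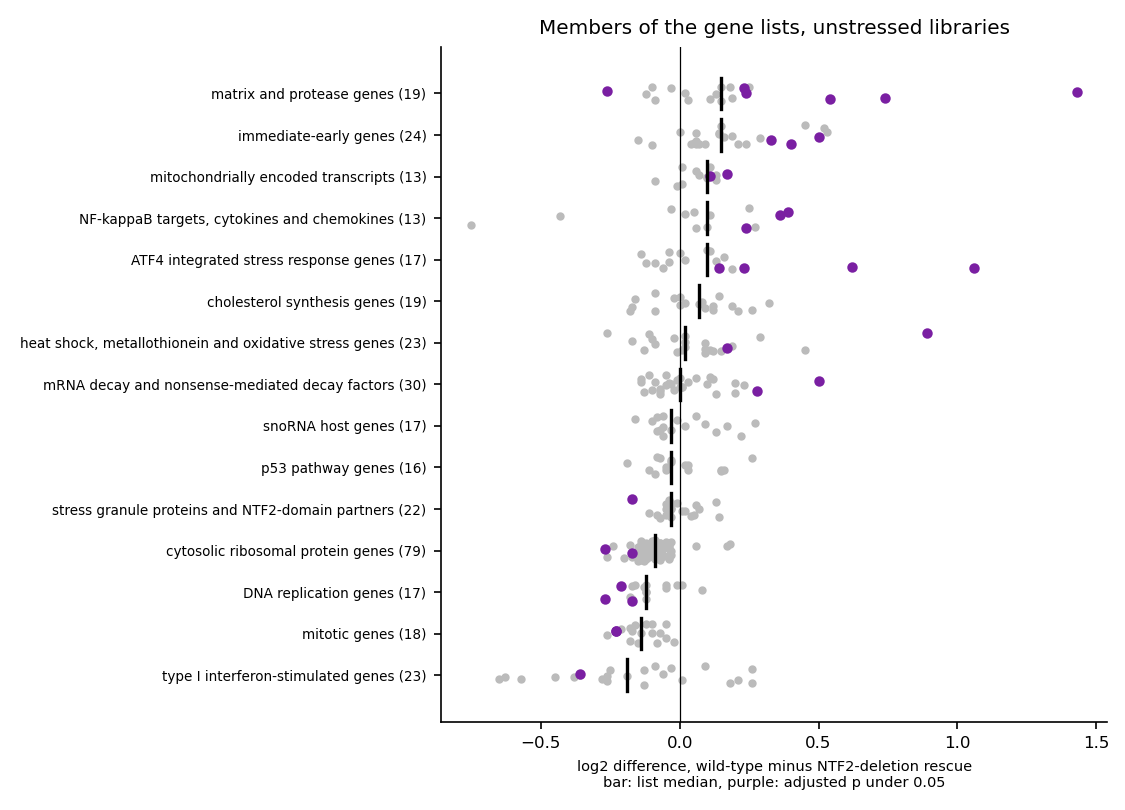
Log2 difference of wild-type minus NTF2-deletion rescue (horizontal axis) for every tested member of 15 gene lists (rows, with the number tested), with each point a gene, purple where the adjusted p is under 0.05, and each bar the list's median. Medians run from -0.19 for interferon-stimulated genes to 0.15 for matrix and immediate-early genes.

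The intervals show how large a difference the 4 libraries leave room for. The 95% interval of the log2 difference lay wholly within 0.5 of 0 for 9988 of 15795 genes (63.2%) and within 1 for 13454 (85.2%). Among the 10394 genes with a mean of at least 100 normalised reads, 9692 (93.2%) lay within 0.5 and 10390 within 1. The median half-width was 0.233 for all genes and 0.170 for those with a mean of at least 100. For most well-counted genes a difference of over 0.5 is thus outside the interval. The other genes, with fewer reads, mostly have wider intervals, so a missed call there says less, although MMP1 was called at a mean under 100.

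The same contrast was then taken in the arsenite-treated libraries, which share no library with the unstressed pair. There 513 of 16070 genes (3.19%) differed, 353 higher (2.2%) and 160 lower (0.996%) with the wild-type form. The arsenite libraries held 16.06 to 27.76 M gene reads (M: 1e6) and the unstressed rescue libraries 13.78 to 15.57 M. Of the 124 genes higher in unstressed cells, 112 also had a positive difference with arsenite (90.3%, against 50.6% of all genes tested), 68 were called higher and 1 lower. Of the 47 lower genes, 43 had a negative difference with arsenite, against 49.4% of all genes, and 13 were called lower and 0 higher. HMOX1 had 6011 and 5899 normalised reads against 3615 and 3483 with arsenite (log2 0.75, SE 0.04, limma adjusted p = 5.73e-17). ATF3 differed by 0.57 (SE 0.06), NEAT1 by 0.46 (SE 0.04) and ZFP36L2 by 0.48 (SE 0.07), close to their unstressed differences. Of the 17 genes called under every omission, all 17 kept their sign with arsenite and 13 were called. G3BP1 was again lower with the wild-type form, at 795969 and 814526 against 969286 and 991486 normalised reads.

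The lists were also counted in the arsenite pair, where 2.2% of all genes were called higher and 0.996% lower. Of 24 immediate-early genes 14 were higher and none lower (median 0.28), of 23 heat shock, metallothionein and oxidative stress genes 9 were higher and none lower (median 0.17), and of 17 ATF4 targets 4 were higher (median 0.13). FOSB had 725.4 and 734.1 normalised reads against 474.2 and 497.3 (log2 0.59, SE 0.09, limma adjusted p = 1.55e-05). Arsenite-treated knockout had far more of FOSB than either rescue, 8002 and 9062, and also of ATF3, 16232 and 17052. It had less than either rescue of KLF6 (1580 and 1614) and KLF10 (1733 and 1718). Ribosomal protein genes had 7 of 79 lower (median -0.12), mitotic genes 5 of 18 lower (median -0.13) and DNA replication genes 4 of 17 lower (median -0.09). Matrix and protease genes had 1 of 19 higher and 2 lower, with a median of -0.03. Differences from the unstressed contrast were tested gene by gene.

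That test called 20 of 16119 genes (0.124%), with 1112 (6.9%) at an unadjusted p under 0.05. The contrast was more positive with arsenite in 4 of the 20 and more negative in 16. MMP3 went from 0.74 without arsenite to 0.15 with it (change -0.59, SE 0.06, limma adjusted p = 2.57e-08). Its arsenite levels were 5822 and 6159 normalised reads with the wild-type form and 5372 and 5362 with the deletion form. SPP1 went from 0.54 to -0.18 (change -0.73, SE 0.13, limma adjusted p = 0.00427). HSPE1 went from -0.26 to 0.22 (change 0.48, SE 0.10, limma adjusted p = 0.0212). G3BP1 went from -0.44 to -0.28 (change 0.15, SE 0.03, limma adjusted p = 0.0384). MMP1 went from 1.43 to 0.18, which was not among the 20.

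The other 16 genes of this test are named after their values were seen. HSPA1A, the inducible HSP70, went from 0.01 to 0.68 and its co-chaperone DNAJB1 from 0.11 to 0.48; HSPA1A is near-identical to HSPA1B, so its reads may be split. RN7SL1 and RN7SL3, near-identical copies of the RNA of the signal recognition particle, went from 0.12 to -1.34 and from 0.00 to -1.14. The mitochondrial ribosomal RNAs MT-RNR1 and MT-RNR2 went from 0.14 to -0.17 and from 0.08 to -0.16. Another 10 genes turned from a positive to a negative difference: CTSB, NID1, ATP6V0B, CD63, EMP1, BSG, TMBIM6, SYPL1, PRDX4 and CERS2. NID1, a basement membrane protein, was called in both pairs in opposite directions, 0.20 without arsenite and -0.19 with it.

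**Figure D5:**
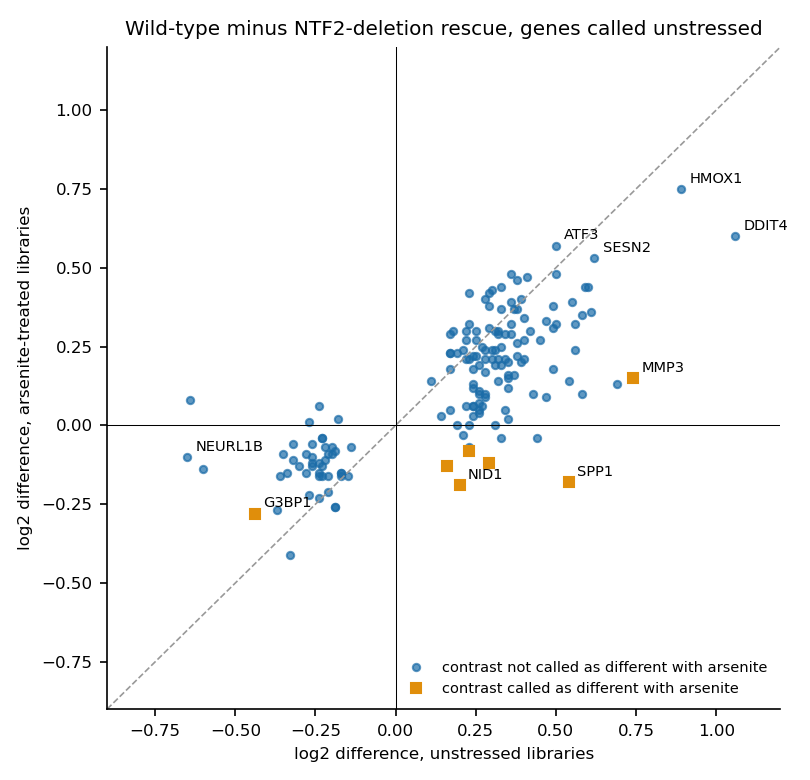
Log2 difference of wild-type minus NTF2-deletion rescue with arsenite (vertical axis) against that without (horizontal axis) for 164 genes called in unstressed cells with a mean of at least 100 normalised reads, without G3BP1P1, with the dashed line marking equal values. Most points share a sign on both axes, and the 7 orange squares are genes whose contrast was called as different, MMP3 and SPP1 among them.

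Binding of the transcripts to G3BP1 was read from the RNA immunoprecipitation of FLAG-tagged G3BP1 in the same series, which was done in another cell line, Flp-In T-REx. The 118 higher genes with a value there had a median log2 enrichment of -0.70 in the authors' deposited table, against -0.12 for all 14752 genes. Of these 118, 21 were called enriched (17.8%, against 34.1% of all) and 69 depleted (58.5%, against 38.5%). The 46 lower genes with a value had a median of 0.46, with 22 enriched (47.8%) and 11 depleted (23.9%). Among the higher genes SPP1 stood at 2.27 in the authors' deposited table, and KDM7A at -2.42. Median gene length was 23626 bp in the higher and 21388 bp in the lower set, against 28547 bp for all genes. These values describe the called genes and were not tested.

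Depth and cell identity were alike in the libraries compared. Reads in no annotated gene were 19.0% and 19.1% with the wild-type form and 19.9% and 21.1% with the deletion form. The libraries of a group varied beyond the sampling of their reads, with a mean squared standardised difference of 1.79 in the wild-type group and 2.94 in the NTF2-deletion group, where sampling gives about 1. Of 10 osteoblast and mesenchymal markers 7 had a mean of at least 10, with the osteoblast factor SP7 at 0 and TWIST1 at 0.257. The labels name the cells epithelial, but of 4 epithelial markers EPCAM (85.4) and CDH1 (12.3) reached a mean of 10 and KRT19 (0.568) and ESRP1 (0.284) did not. Summed leukocyte markers stayed between 3.31 and 6.51 normalised reads and endothelial ones between 17.4 and 20.5. Of 4 kidney-line markers LIN28B stood at 703 and SOX2 at 11.6, while PAX2 (6.97) and CDH6 (0.532) were under a mean of 10.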

How the data were processed

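Poly-A RNA was sequenced from 2 libraries per group after strand-preserving preparation, per the labels' protocols. The submitters' processing notes name STAR 1.5.3 and DESeq2 2.11.40.6; the genome build, annotation and use of strand in counting are not given in the sources used here. The authors deposited, per comparison, a base mean (a signal in normalised reads averaged over 4 libraries), a log2 fold change with its SE, a Wald score, a p-value and an adjusted p-value. The deposited fold changes are shrunk by a normal prior of width 1.18 and 1.17. The 4 summary lines of the counting, 38.7% to 40.0% of the reads of the rescue libraries, were dropped.

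The members and gene lists were chosen with earlier results of these data known. First, the fold changes of both rescues over knockout were subtracted and divided by the root of the summed squared SEs (two-sided normal test). Second, whole reads per library were recovered: 7 tables weight the same 12 libraries differently, and 1 set of whole reads met all base means for 38909 of 38909 genes (largest relative gap 7.08e-15). Recomputed size factors equalled those of the tables to 2.8e-15. The reads entered limma 3.58.1 with voom weights (R 4.3.3) over the 6 unstressed libraries, with median-of-ratios scaling and a mean of at least 10 normalised reads in the rescue libraries. All 12 libraries entered the arsenite contrasts. P-values were Benjamini-Hochberg adjusted over all genes tested, with a threshold of 0.05. Nothing says that libraries of a group are separate cultures, so p-values refer to spread between libraries, not between cultures. The limma spread of a gene came mostly from all genes pooled, with knockout libraries included. The unstressed fit had 58 prior degrees of freedom, from all genes, against 3 residual ones. The arsenite fit had 35.29 against 6. An exact permutation test of 2 against 2 libraries cannot go below p = 0.333. On simulated data the direct comparison over 15807 genes recovered 67% of log2 changes of 0.5 and 95% of changes of 1, with 2.99% false calls. The simulation gave every gene and group the same spread beyond sampling, and changed only genes with a mean well above the minimum. The real groups differed in spread, so these rates need not hold for them.

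Named genes are G3BP1, G3BP2, G3BP1P1, CAPRIN1, USP10 and UBAP2L, those called by the difference test, the 10 highest and 10 lowest called genes with a mean of at least 100, and each list's called and extreme members; 2 genes that this rule names are not reported here. Others are said to be named after their values were seen. Symbols were found for 42045 of 61541 IDs.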

Additional observations from a re-analysis of the deposited data

Results flagged for a closer look

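The contrast of wild-type minus NTF2-deletion rescue was tested for a difference between unstressed and arsenite-treated libraries, and 20 of 16119 genes passed. Of the genes named by rule, 4 were among them. The change from unstressed to arsenite was -0.59 for MMP3, -0.73 for SPP1, 0.48 for HSPE1 and 0.15 for G3BP1. MMP3 and G3BP1 kept their sign in both pairs, while SPP1 and HSPE1 changed it. SPP1 was called in the unstressed pair and not in the arsenite pair (limma adjusted p = 3.58e-04 and 0.303), and HSPE1 the other way round (0.0717 and 0.0337). With an intensity trend in place of voom weights, 3 genes in all passed this test. Groups of 2 libraries are too small for the check on single outlying samples.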

How the results depend on the processing

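No paired analysis was possible because the recovered reads cannot be tied to the replicate numbers of the labels. The 3 calls of the difference of deposited fold changes fell to 1, G3BP1, at a base mean of at least 100, where the other 2 were not tested. The 171 calls of the direct comparison became 110 with an intensity trend on log2(normalised reads + 1), 93 with no minimum and 408 with only the 4 rescue libraries, and ranged from 24 to 135 with 1 library left out; 17 were called with all libraries and in each of the 4 fits with 1 left out, an alternative chosen after seeing the data. The arsenite pair moved from 513 to 1438 with only its 4 libraries and to 92 to 181 with 1 left out, and the test between both pairs from 20 to 3 with the trend. The cause of these changes was not tested. Intervals within 0.5 numbered 5882 from the deposited fold changes in place of 9988, and list members called fell from 31 to 0. No gene of the naming rule that limma called changed direction under the alternatives run for it. Uncalled genes near 0 could change it: G3BP2 went from -0.02 to 0.01 without an NTF2-deletion library. Genes named after their values were seen were not refitted one by one.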
